A study of Homo sapiens with 6 samples.

Results

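The E2F and DP transcription factors are the 10 genes E2F1 to E2F8, TFDP1 and TFDP2. They were measured in HT29, a human colon adenocarcinoma cell line, in 3 samples labelled NS398-treated and 3 labelled control. NS398 is a selective inhibitor of cyclooxygenase-2, the inducible enzyme of prostaglandin synthesis. By the methods of the study, the treated cells received the highest of its NS398 concentrations in serum-free medium and the controls received the solvent, DMSO. All results are from 1 cell line, and the methods of the study call the 3 samples of each group biological replicates. How the cultures were divided is not given, so the p-values speak only of the spread among these samples. Total RNA of each sample was hybridised on 1 Affymetrix HG-U133 Plus 2.0 array. The members were taken as every probe set whose platform annotation names one of the 10 genes alone. This gave 22 of 54675 probe sets and 10 of the 19775 genes that have a probe set of their own, and 0 probe sets named a member together with another gene.

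E2F proteins bind DNA as dimers with a DP partner and control the genes that carry cells from G1 into S phase. E2F1, E2F2 and E2F3 are known as activators, which the retinoblastoma protein holds inactive until cyclin-dependent kinases phosphorylate it. E2F4 and E2F5 act with the related pocket proteins p107 and p130 as repressors in resting cells, and E2F6 represses with Polycomb proteins. E2F7 and E2F8, the atypical members, bind DNA without a DP partner, repress E2F targets late in S phase and are themselves E2F targets. In the intestine, E2F activity accompanies the division of crypt cells.

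The values are linear probe set signals in arbitrary units, scaled to the same trimmed mean in each array, with a median signal of 65 to 80.2 per array. Each difference is the mean log2 signal of the NS398 arrays less that of the control arrays, given with its standard error (SE) from a limma fit whose prior variance follows the signal level (variance trend). A gene is represented by its brightest probe set, and it is said to have risen or fallen where the adjusted p of this fit (Benjamini-Hochberg over all 54675 probe sets) was under 0.05. The median log2 signal of the NS398 arrays was 0.12 above that of the control arrays, and over all genes the median difference was 0.07. RNA integrity was read from the 3′ over 5′ signal of the ACTB and GAPDH control probe sets. For ACTB it was 1.27 to 1.32 in control and 1.45 to 1.71 in NS398 arrays (p = 0.1 by a two-sided exact permutation test, which cannot go lower with 3 arrays against 3). For GAPDH it was 0.969 to 1.08 in control and 1.04 to 1.21 in NS398 arrays, which overlapped (p = 0.5 by the same exact permutation test). The part of RNA integrity in the results was not tested. Of 11 colon epithelium markers, 9 were bright, among them EPCAM at 25360 and CDH1 at 10640 in control arrays, while the colonic transcription factors CDX1 and CDX2 were at 25.9 and 46.0 and thus near background. In the NS398 arrays 3 of these markers rose and 1 fell. CEACAM5, an adhesion molecule of mature colonocytes, rose from 463 to 7861, the keratin gene KRT20 from 8022 to 17810 and LGALS4 by 0.38 on the log2 scale, while VIL1, which encodes villin, fell by 0.71. Their summed signals were 132800 to 150500 in control and 165000 to 174400 in NS398 arrays, and the part of these changes in the results was not tested. Of the 6 measured leukocyte, 8 fibroblast and 5 endothelial markers, LUM rose from 45.5 to 215 and 0 others passed. Their summed signals were 25620 to 32400 in control and 28730 to 33810 in NS398 arrays for leukocytes, nearly all of it from LYZ, 657 to 861 and 924 to 1118 for fibroblasts, and 172 to 301 and 234 to 300 for endothelium. Among these markers, PTPRC, COL3A1 and CDH5 stayed at or below 27.2 in both group means. Others were brighter, namely COL1A1 (303 in control and 423 in NS398 arrays), VIM (173 and 151) and PECAM1 (144 and 197).

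Directions are those of the labels as deposited. They oppose the study's own for most genes it gives a direction in its text, and E2F1, E2F7, E2F8, TFDP1 and TFDP2 also stand on the opposite side in its supplementary list.

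Of the 10 genes, 5 fell in the NS398 arrays and 0 rose. The decreases were both atypical factors, E2F8 and E2F7, both DP partners, TFDP2 and TFDP1, and 1 of 3 activators, E2F1. Over all genes tested, 4.85% were called lower and 5.23% higher. The median difference of the 10 genes was -0.83, against 0.07 over all genes. In 7 genes, each with a lower mean, all NS398 arrays lay below all control arrays, as in 13.5% of all genes. Of the 22 probe sets, 6 passed as lower (3.17% of all probe sets did), and 12 had separate groups with lower NS398 signals (10.8% of all probe sets did). By limma without the variance trend, 0 of the 10 genes passed (0.0759% of all genes did). A SAM statistic computed on these scaled signals, at a false discovery limit of 0.05, also called 0 of them (0.00506% of all genes). By its methods the study applied SAM to gcRMA values, which are of another kind. Its own supplementary list does hold E2F1, E2F7, E2F8, TFDP1 and TFDP2, so this count does not repeat its test. In whole cultures, fewer cells in S phase and less transcript in each cell cannot be told apart.

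**Figure D1:**
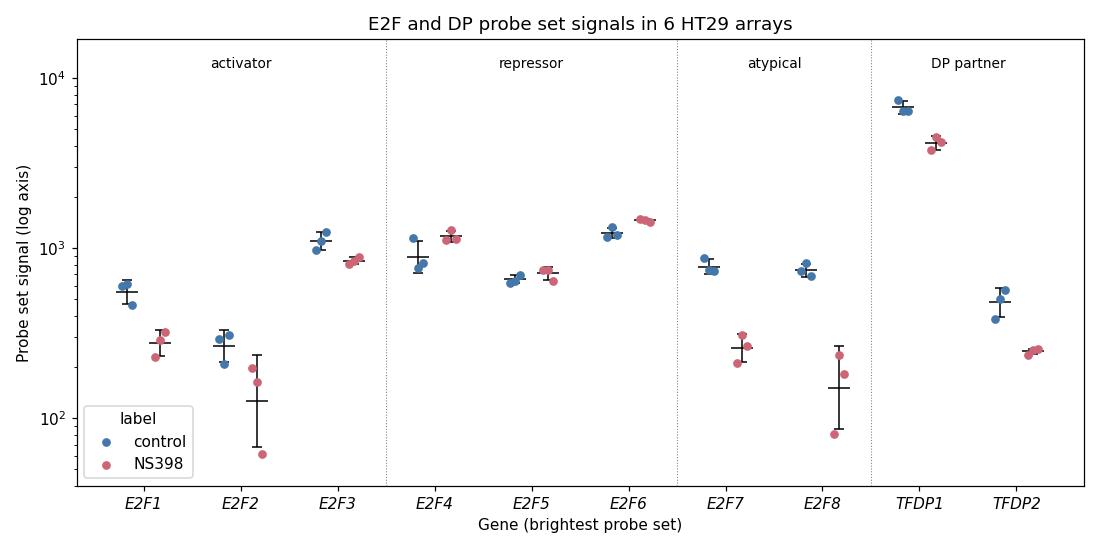
Signal of the brightest probe set of each of the 10 genes in every array (points, log axis), with the geometric mean of 3 arrays and 1 SD of the log2 signal (black bars). E2F8 lay at 683 to 816 in control and 80.9 to 236 in NS398 arrays, while the 2 groups of points overlapped for E2F4 and E2F5.

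Read from the brightest probe sets, the atypical factors had the largest decreases of the family. The signal of E2F8 was 731, 816 and 683 in control replicates 1, 2 and 3 and 80.9, 236 and 182 in NS398 replicates 1, 2 and 3. The groups were far apart, and NS398 replicate 1 was the lowest. Its difference was -2.29 ± 0.33 (SE, n = 3 per group, limma variance-trend adjusted p = 0.00201), a 4.9-fold lower level with a 95% interval of -3.02 to -1.56 on the log2 scale. The signal of E2F7 was 877, 740 and 729 in control and 211, 307 and 265 in NS398 arrays. The groups again did not overlap, and NS398 replicate 1 was again the lowest. The difference was -1.60 ± 0.19 (adjusted p = 6.23e-04), or 3.02-fold lower. The second E2F7 probe set was dim and scattered, with 138, 28.7 and 165 in control and 86.4, 95 and 42.7 in NS398 arrays. It overlapped between groups and did not pass (-0.30 ± 0.64, adjusted p = 0.863). With the mean of both probe sets in place of the brighter one, E2F7 did not pass either (-0.95, adjusted p = 0.169).

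Both partners that complete the E2F dimer fell. TFDP1, which encodes DP-1, the widely expressed partner, had signals of 7421, 6390 and 6432 in control and 3773, 4518 and 4202 in NS398 arrays. Every NS398 array was below every control array, and the difference was -0.70 ± 0.11 (adjusted p = 0.00300), or 1.62-fold. A second TFDP1 probe set fell by 0.82 on the log2 scale (adjusted p = 0.0194), and the third, whose groups overlapped, had a like difference of -0.84 but a wider spread (adjusted p = 0.0703). All 3 probe sets therefore had a lower mean, between -0.70 and -0.84.

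TFDP2 encodes DP-2, the partner with more restricted expression. Its signal was 386, 503 and 567 in control and 236, 251 and 254 in NS398 arrays, groups that did not overlap. The difference was -0.96 ± 0.20 (adjusted p = 0.0149), or 1.94-fold. The other 3 probe sets had lower means, with differences of -0.39, -0.39 and -1.27, and 0 of them passed (adjusted p of 0.407, 0.484 and 0.141). The TFDP2 call was lost without control replicate 2 (adjusted p = 0.0509), control replicate 3 (0.0904), NS398 replicate 1 (0.0615) or NS398 replicate 2 (0.0579).

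**Figure D2:**
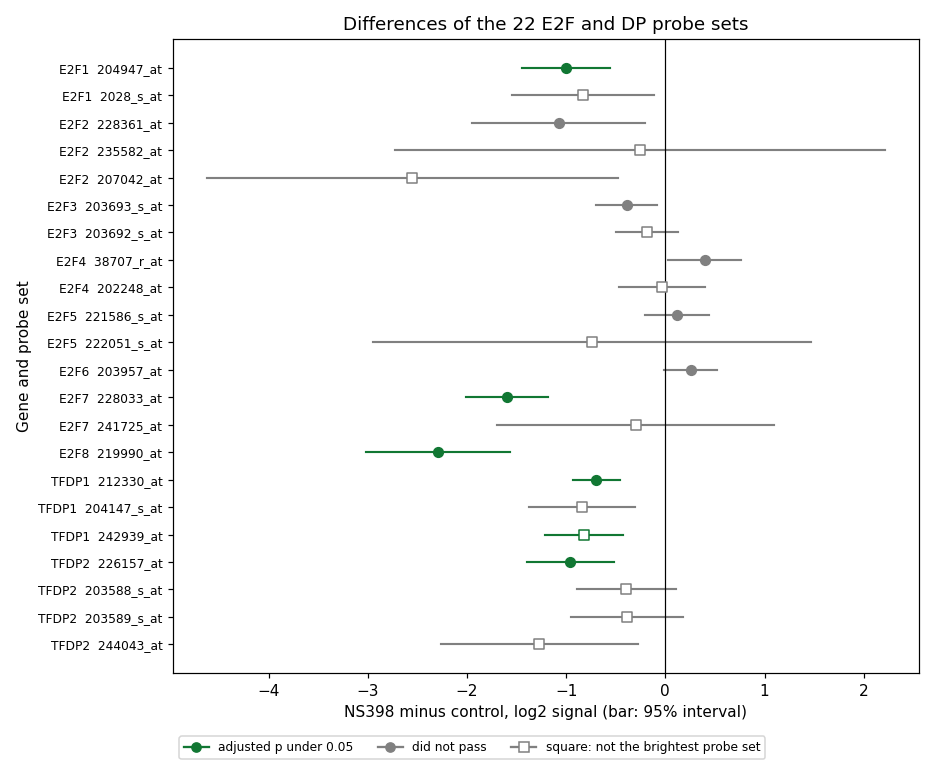
Difference between NS398 and control arrays for each of the 22 probe sets (log2 signal, points) with its 95% interval (bars), grouped by gene. Green marks the 6 probe sets that passed, all lower, and open squares are probe sets that are not the brightest of their gene. Dim probe sets, such as the second of E2F5, have the widest intervals.

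The activators had lower means throughout, and only the decrease of E2F1 passed the test. E2F1, the factor best known for driving S phase entry, had signals of 596, 618 and 460 in control and 228, 287 and 321 in NS398 arrays. The groups were separate, and the difference was -1.005 ± 0.202 (adjusted p = 0.0126), or 2.01-fold. The second E2F1 probe set, at 618, 343 and 328 in control and 144, 316 and 272 in NS398 arrays, was also separate but did not pass (-0.83 ± 0.33, adjusted p = 0.192). The E2F1 call was lost without control replicate 2 (adjusted p = 0.0501) or NS398 replicate 1 (0.0584).

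E2F2, an activator that is strongly tied to proliferating cells, had signals of 293, 208 and 308 in control and 196, 164 and 62 in NS398 arrays. These did not overlap, yet NS398 replicate 3 lay far below the other NS398 arrays, and the difference of -1.08 ± 0.40 did not pass (adjusted p = 0.159). Without NS398 replicate 3 it was -0.57 (adjusted p = 0.339). Its other 2 probe sets were dim, with signals of 3.3 to 110.5 over both, and did not pass (-0.26 and -2.55). E2F3 had signals of 976, 1104 and 1247 in control and 807, 838 and 883 in NS398 arrays, which did not overlap. Its difference was small, -0.39 ± 0.14, and did not pass (adjusted p = 0.148), and its second probe set had -0.18 with overlapping groups.

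The repressors had slightly higher means, and 0 of 3 passed. E2F4, the most abundant E2F protein of many tissues, had signals of 1143, 761 and 815 in control and 1116, 1273 and 1139 in NS398 arrays. The groups overlapped through control replicate 1, and the difference of 0.40 ± 0.17 did not pass (adjusted p = 0.228). It did pass without that array (0.58, adjusted p = 0.0287). The second E2F4 probe set gave -0.04 ± 0.20, so that the 2 probe sets disagreed in sign.

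E2F5, which pairs with p130, had signals of 628, 642 and 698 in control and 746, 745 and 643 in NS398 arrays. These overlapped, and the difference of 0.12 ± 0.15 (adjusted p = 0.751) turned to -0.01 when each array was centred on its median. A second, dim probe set gave -0.74 ± 1.00. E2F6, which represses germline genes with a Polycomb complex, had signals of 1159, 1322 and 1197 in control and 1483, 1471 and 1427 in NS398 arrays. Each NS398 array was above each control array, but the difference of 0.25 ± 0.12, with a 95% interval of -0.01 to 0.52, did not pass (adjusted p = 0.292).

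Set against each other, the activators and the repressors moved apart. The mean difference of E2F1, E2F2 and E2F3 was -0.82 (range -1.08 to -0.39) and that of E2F4, E2F5 and E2F6 was 0.26 (0.12 to 0.40), so that, by the brightest probe sets, the lowest repressor lay above the highest activator. Relative to the control mean, the mean log2 signal of the activators less that of the repressors was -0.05, -0.02 and 0.06 in the control arrays and between -1.25 and -0.99 in the NS398 arrays. The 2 groups did not overlap, and their means differed by -1.08, with an SD of 0.06 in control and 0.15 in NS398 arrays. This balance is given without a test because it sums over chosen genes, and scaling of whole arrays cannot move it. Averaging every probe set of each gene first gave -0.87, and the order then no longer held, since the repressor E2F5 (-0.31) lay below the activator E2F3 (-0.29).

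**Figure D3:**
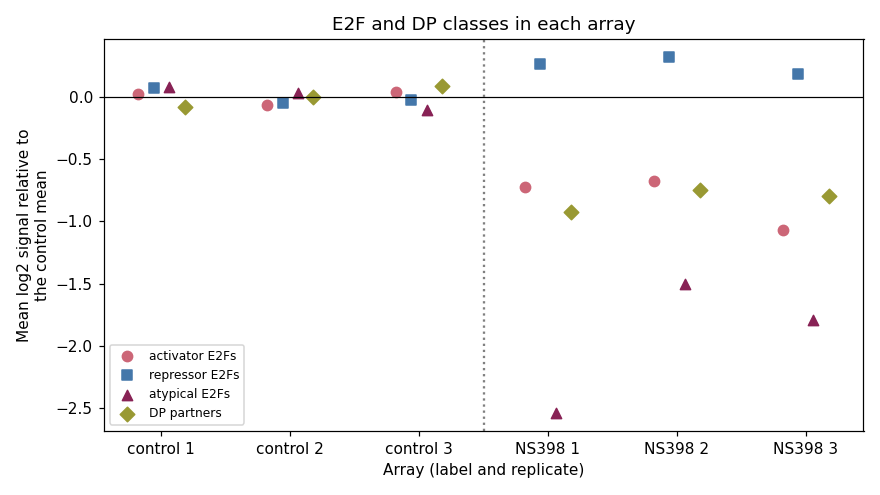
Mean log2 signal of the 4 classes in each array, relative to the mean of the control arrays (brightest probe sets, 3 activators, 3 repressors, 2 atypical factors, 2 DP partners). In the NS398 arrays the atypical factors lay at -2.54 to -1.50, the activators at -1.07 to -0.68 and the DP partners at -0.93 to -0.75, while the repressors lay at 0.18 to 0.32.

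One array carried the lowest value of many members. NS398 replicate 1 was the lowest of the 6 arrays in each of the 5 genes that fell. This array also had the highest signal of the 18S rRNA control probe set, 23600, against 12400 and 4830 in the other NS398 arrays and 3450 to 4860 in control arrays, and the part of this in the results was not tested. Without it, E2F7, E2F8 and TFDP1 passed (3 genes instead of 5), and without control replicate 2 the same 3 genes passed.

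Activator E2Fs are known to act on their own promoters, so the sequences before the start sites were searched for E2F octamers. Those printed are of the 4 genes that held an octamer, and of E2F4 and E2F6, which held 0. E2F7 and TFDP2, which fell, also held 0 and are not printed. RefSeq promoters (GRCh38.p14, from 250 bases before to 50 bases after the annotated start) were at hand for 8 of the 10 genes, the exceptions being E2F5 and E2F8. They were searched on both strands for the octamers TTTGGCGC, TTTCCCGC, TTTGCCGC and TTTCGCGC, which are forms of the E2F consensus. At least 1 octamer lay in 4 of the 8 genes, namely E2F1, E2F2, E2F3 and TFDP1, against 3.33% of 27305 promoters of the same length, 1 per gene. E2F1 held 2, at -33 to -26 and at -20 to -13 from the start, and E2F2 held 1 at -42 to -35. E2F3 held 1 at -53 to -46 of the upstream of its 2 annotated starts, and TFDP1 held 1 at -120 to -113. E2F4, E2F6, E2F7 and TFDP2 held 0 in this window, which says only that these letters are not there. For the genes chosen above, the last 150 bases before the start are printed on the strand of the gene, 5′ to 3′. The octamers, or their reverse complements, are in capitals.
E2F1, chr20:33686386-33686535, minus strand: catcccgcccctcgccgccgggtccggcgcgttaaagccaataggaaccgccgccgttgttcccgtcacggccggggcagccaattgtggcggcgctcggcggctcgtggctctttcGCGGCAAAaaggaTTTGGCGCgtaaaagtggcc
E2F2, chr1:23531234-23531383, minus strand: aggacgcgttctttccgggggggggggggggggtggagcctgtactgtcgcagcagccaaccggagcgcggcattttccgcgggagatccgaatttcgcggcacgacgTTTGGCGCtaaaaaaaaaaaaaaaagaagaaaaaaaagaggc
E2F3, chr6:20401729-20401878, plus strand: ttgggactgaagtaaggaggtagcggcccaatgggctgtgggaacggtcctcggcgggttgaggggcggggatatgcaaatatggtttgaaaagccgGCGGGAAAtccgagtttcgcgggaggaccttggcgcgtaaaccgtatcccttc
TFDP1, chr13:113584603-113584752, plus strand: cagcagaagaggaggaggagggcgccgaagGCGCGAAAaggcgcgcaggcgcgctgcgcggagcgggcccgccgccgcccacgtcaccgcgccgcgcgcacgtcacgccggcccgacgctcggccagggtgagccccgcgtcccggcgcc
E2F4, chr16:67192005-67192154, plus strand: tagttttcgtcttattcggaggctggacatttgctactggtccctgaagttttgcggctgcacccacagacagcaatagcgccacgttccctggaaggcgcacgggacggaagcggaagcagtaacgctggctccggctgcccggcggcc
E2F6, chr2:11466162-11466311, minus strand: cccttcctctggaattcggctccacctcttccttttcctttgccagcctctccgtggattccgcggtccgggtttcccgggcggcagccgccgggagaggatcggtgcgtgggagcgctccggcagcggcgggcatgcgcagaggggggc

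**Figure D4:**
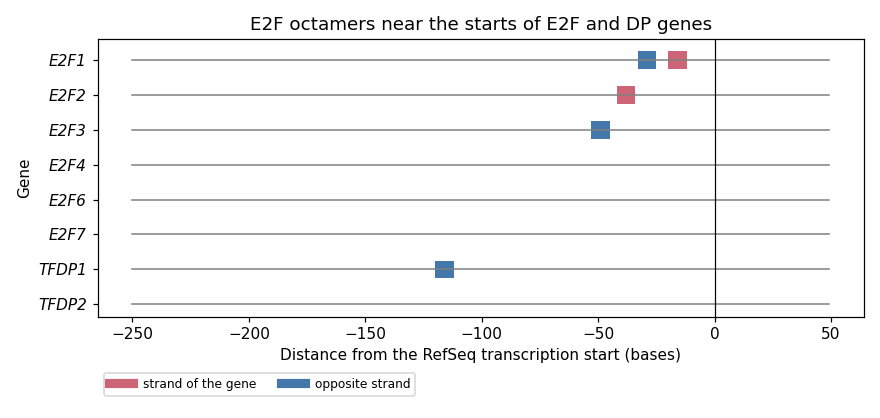
Position of the E2F octamers (coloured boxes) along 300 bases around the RefSeq start of 8 genes, in bases from the start, with boxes on the strand of the gene in red and on the opposite strand in blue. The octamers of E2F1, E2F2 and E2F3 lay between -53 and -13, that of TFDP1 lay at -120 to -113, and E2F4, E2F6, E2F7 and TFDP2 had none.

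The genes of the pocket proteins, which act with E2F1 to E2F5, did not pass. RB1, the retinoblastoma gene, had group signals of 1740 in control and 1793 in NS398 arrays (0.04 ± 0.15, adjusted p = 0.921), and its sign turned under median centring. RBL2, which encodes p130, had 2567 and 2899 (0.17 ± 0.11, adjusted p = 0.440). RBL1, which encodes p107 and is itself an E2F target, had 140 and 91.1 (-0.62 ± 0.36, adjusted p = 0.411). This difference was -0.28 without NS398 replicate 1 and -0.40 with averaged probe sets. Of these 3 genes 0 were called, where 10.1% of all genes were called in either direction.

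Among 7 measured genes of the MuvB core, MYBL2 and FOXM1, 3 fell and 0 rose (median -0.39), where 4.85% of all genes fell and 5.23% rose. The MuvB core turns from repression with E2F4 and p130 to activation with MYBL2 and then FOXM1 as cells cycle. MYBL2 fell from 1523 to 289 (-2.40 ± 0.26, adjusted p = 3.75e-04) and FOXM1 from 1298 to 370 (-1.81 ± 0.25, adjusted p = 0.00165). The histone chaperone gene RBBP4, shared with other complexes, fell by 0.55 on the log2 scale (adjusted p = 0.00882), a call lost without control replicate 3 (adjusted p = 0.0564) or NS398 replicate 2 (0.0555). LIN9, LIN37, LIN52 and LIN54, the structural core, had differences of -0.39 to 0.21 and did not pass.

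Above the pocket proteins, the listed G1 cyclins and kinases that passed all fell, while 1 CDK inhibitor rose. Of 10 G1 cyclins, kinases and regulators of these, 5 fell and 0 rose (median -0.60), against 4.85% lower and 5.23% higher over all genes. CCNE2, a cyclin E gene and E2F target, fell from 345 to 92.9 (-1.89 ± 0.29) and its partner CDK2 from 1698 to 866 (-0.97 ± 0.18). SKP2, which marks p27 for degradation, fell from 3683 to 2085 (-0.82 ± 0.15) and CCND3 from 1409 to 855 (-0.72 ± 0.18). The other cyclin E gene, CCNE1, is also an E2F target and did not pass (-0.40, adjusted p = 0.338). With all probe sets averaged, CDK2 (-0.58, adjusted p = 0.511) and CCND3 (-1.14, adjusted p = 0.141) no longer passed. The CCND3 call was also lost without control replicate 1 or 3, without NS398 replicate 1, 2 or 3 (adjusted p of 0.0616 to 0.138) and with the replicate block (0.0777). The fifth, CDK6 (-0.47), is outside the rule for named genes and was named after its value was seen. The count was 3 without control replicate 1, control replicate 3, NS398 replicate 1 or NS398 replicate 2. Of 6 measured CDK inhibitors, CDKN2B, which encodes p15 and blocks CDK4 and CDK6, rose from 212 to 1068 (2.33 ± 0.23, adjusted p = 2.20e-04) and 0 fell (median -0.15).

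Known targets of E2F fell almost throughout. The list of G1/S targets includes E2F1 and RBL1 and shares CCNE2, CCNE1 and CDC25A with the G1 cyclins and kinases. Of its 28 measured genes, 22 fell and 0 rose, and all 28 had a lower mean (median -1.24). Those with the smallest p were TYMS, RRM1 and RRM2, which supply nucleotides, and the licensing factor CDT1, with differences of -2.35, -1.24, -2.36 and -1.79. Of 20 targets of E2F and the DREAM complex in G2 and mitosis, 20 fell (median -1.57), and those with the smallest adjusted p were NUSAP1 (-2.02), KIF11 (-2.03), TOP2A (-1.94) and CDK1 (-1.96). Over all genes the share called lower was 4.85%. The G1/S count was 16 without NS398 replicate 1, 19 or 20 without any other single array, and 19 with the replicate block. The G2/M count stayed at 19 or 20 in these settings. Relative to the control mean, the 27 G1/S targets other than E2F1 had a mean log2 signal of -1.65, -1.07 and -1.17 in NS398 replicates 1, 2 and 3, and the G2/M targets -1.98, -1.26 and -1.55. Here too NS398 replicate 1 was the lowest. An octamer lay in the promoters of 16 of the 25 G1/S targets with a RefSeq promoter (64.0%) and in 3 of 16 G2/M targets (18.8%).

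The lists tied to single E2Fs were less uniform. Of 7 measured apoptotic genes that E2F1 is known to induce, 3 fell and 1 rose (median -0.69), against 4.85% and 5.23% of all genes. TP53INP1 fell from 488 to 112, the apoptosome gene APAF1 from 441 to 203 and SIVA1 from 1336 to 826, while PMAIP1, which encodes the BH3-only protein NOXA, rose from 1073 to 2068. Without control replicate 3, 0 of these fell (adjusted p of 0.0664 for TP53INP1, 0.0749 for APAF1 and 0.0771 for SIVA1). APAF1 also lost its call without control replicate 2 or NS398 replicate 2 or 3 (adjusted p of 0.0526 to 0.0654), and SIVA1 without control replicate 1 or any one NS398 array (0.0560 to 0.117) and with the replicate block (0.0724). With all probe sets averaged, TP53INP1 was -0.99 (adjusted p = 0.527) and APAF1 was -0.74 (adjusted p = 0.287), and neither passed. Of 9 measured Polycomb partners of E2F6, 0 passed (10.1% of all genes did in either direction), with a median of -0.15. The 3 measured germline genes that E2F6 represses, STAG3, SMC1B and SLC25A31, were dim, with a median signal of 11.1, and 0 passed.

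**Figure D5:**
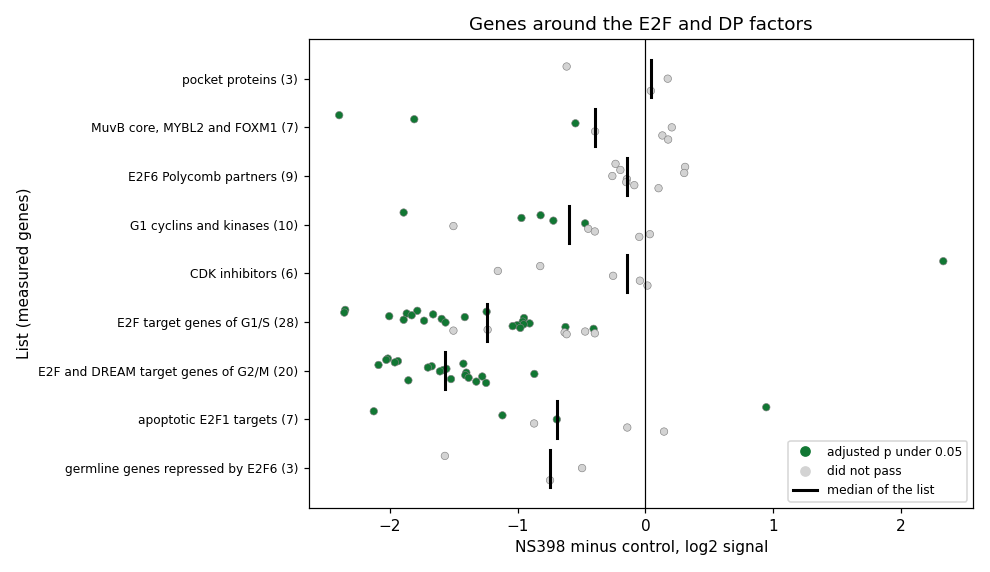
Difference between NS398 and control arrays (log2 signal) of every measured gene in 9 lists around the E2F and DP factors, with the median of each list (black line) and genes that passed in green. All 20 G2/M targets and 22 of 28 G1/S targets are green and lie left of 0, whereas 0 pocket proteins and 0 Polycomb partners of E2F6 passed.

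The member with the smallest adjusted p was E2F7. Among 10667 other genes with a mean log2 signal above 7, those whose profile over the 6 arrays, centred on its own mean, lay closest to that of E2F7 were APOBEC3B, PRR11, KIF23, ATAD2 and SKA2. Their root mean square deviation from E2F7 was 0.06, 0.06, 0.09, 0.09 and 0.09 on the log2 scale. Their differences were -1.58, -1.66, -1.56, -1.56 and -1.67, close to the -1.60 of E2F7, which follows from choosing them by likeness of profile.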

How the data were processed

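The deposited values are linear intensity values, 1 per probe set and array. The authors scaled each array to a mean of 500 after trimming 2% at each end. The methods describe gcRMA with quantile normalisation, but the quantiles differ between arrays, so these values are of another kind. The submitters' processing notes list affy without a version. Base-2 logarithms were taken without an offset. Symbols came from the platform annotation and were updated by Entrez number through RefSeq. Of the probe sets, 75.2% name 1 gene. Groups followed the titles of the samples.

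Probe sets were tested with lmFit and eBayes of limma 3.58.1 (R 4.3.3), with trend and robust estimation and treatment as the only term. The median prior degrees of freedom were 7.07, against 1.36 without the trend. The members, the lists, the tests and the variance trend were chosen with earlier results of these data known. Genes were named as all members, the pocket proteins, up to 4 called genes with the smallest adjusted p per list, and the 5 profiles closest to the member with the smallest adjusted p. Listed genes with no probe set of their own were left out. The alternatives were median centring, quantile normalisation, limits on dim probe sets, an offset of 32, plain limma, the SAM statistic over 20 label assignments (false calls taken as the median over assignments, since in the simulation their mean, which counts the observed split, left no calls), array weights, the mean of all probe sets, a replicate block and the omission of single arrays. The procedures were tested on simulated data. The number of arrays limits the precision. Figures were drawn with matplotlib 3.10.9.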

Additional observations from a re-analysis of the deposited data

How the results depend on the processing

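The same 5 member genes passed as lower, and 0 as higher, under median centring, quantile normalisation, limits on the mean log2 signal of 4 and 7, an offset of 32 and array weights. Plain limma and the SAM statistic called 0 member genes and 0 of the genes in the lists, against 53 list genes with the variance trend. When every probe set of a gene was averaged, 2 members (E2F8 and TFDP1) were lower, and the activator minus repressor difference was -0.87 against -1.08. Leaving out each array gave 3 to 5 members lower, 0 to 1 higher, 43 to 49 list genes called and an activator minus repressor difference of -1.13 to -0.99. Some small differences turned sign. E2F5 was -0.006 with median centring and -0.311 with averaged probe sets. RB1 was -0.078 with median centring, -0.014 with array weights, -0.174 with averaged probe sets and between -0.12 (without control replicate 1) and 0.133 when single arrays were left out, and RBL2 was -0.026 with averaged probe sets. The cause was not tested in each case. With the replicate number as a block, the 5 members were called again, CCND3 and SIVA1 were not, and over all probe sets 2462 passed against 3513. Arrays with the same number did not deviate together (correlations of -0.14, -0.06 and -0.10 over bright probe sets). With 3 arrays in each group these values cannot settle whether the numbers mark a shared batch. The spread of dim signals limits what can be said of the second probe sets of E2F2, E2F5 and E2F7.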
